A study of Mus musculus with 5 samples.

Results

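The genes described here are 10 imprinted genes, given by name: H19, Igf2, Meg3, Rian, Mirg, Dlk1, Peg3, Mest, Grb10 and Cdkn1c. They are 10 of 55147 gene symbols measured, and all 10 were among the 12518 genes that were tested, for which 2 or more samples had to reach a TPM of 1. A gene could meet this filter through 1 group alone, as Igf2 and Dlk1 did through WT. Imprinted genes are transcribed mainly from a single parental copy, which is chosen by DNA methylation set in the egg or the sperm at imprinting control regions. Most lie in clusters that hold both maternally and paternally expressed genes, and many act on the growth of the embryo and the placenta. Embryonic stem (ES) cells are known to vary in imprinting between lines and between clones of the same line.

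RNA sequencing was used to compare gene expression between WT and C3G KO cells of the mouse ES line E14Tg2a, with 3 WT samples and 2 C3G KO samples. The WT samples were labelled as wild type, and the C3G KO samples as C3G-/-, where C3G is a guanine nucleotide exchange factor encoded by Rapgef1. In the study the WT cells are the parent cells, and in the C3G KO cells a puromycin cassette under the EF1α promoter took the place of exons 2 to 4. The C3G KO cells came from colonies picked under puromycin, which the parent cells did not go through, and the labels do not tell which clones the 2 samples are, so that an effect of the knockout and a difference of the clone cannot be told apart. All samples were grown on gelatin in medium with serum and LIF, with no treatment. The study calls the samples of each group independent, and neither it nor the labels say whether they were separate cultures, so p-values measure only the spread between these samples, part of which may be technical. Values are TPM, which set the reads of a transcript against its length and the total of the sample. RNA of both parental copies is summed in these values, so imprinting itself was not measured. Whether reads were assigned by strand is not given in the sources used here, so that a gene and an antisense partner cannot be told apart.

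Rapgef1 (ENSMUSG00000039844, chromosome 2 from 29619720 to 29740978 in GRCm38) was lower in both samples labelled C3G KO. It was measured at 11.6 TPM in WT 1, 10.3 in WT 2 and 9.64 in WT 3, against 3.92 in C3G KO 1 and 5.55 in C3G KO 2, with no overlap of the groups. Small non-coding RNAs held 62.9%, 63.5% and 67.2% of all TPM in WT 1 to 3, against 77.8% and 69.6% in C3G KO 1 and 2, which lowers the TPM of other genes. Each sample was therefore divided by its median-of-ratios factor, which was 1.33, 1.22 and 1.10 for WT and 0.619 and 0.906 for C3G KO, and these scaled TPM are the values compared below unless the TPM are named as deposited. Rapgef1 had a log2 fold change of -0.41 in C3G KO (standard error 0.0585, limma adjusted p = 0.00444), on the scale of log2(TPM + 1), which understates changes of genes with low values. It did not pass the threshold of 0.05 once trends with length and GC content of the transcripts were subtracted (-0.09, limma adjusted p = 0.386), and the part of transcripts without the replaced exons in its remaining TPM was not tested.

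Markers of pluripotent ES cells were present in every sample. Pou5f1, the most abundant of 8 such markers, had 357, 371 and 400 TPM for WT 1 to 3 against 230 and 298 for C3G KO 1 and 2 as deposited, and of the 8 none was higher by limma (2 at an unadjusted p under 0.05) and Klf4 was lower (log2 fold change -0.51, standard error 0.137, limma adjusted p = 0.0348). The Klf4 call was lost without WT 1 (-0.47), WT 2 (-0.48) or C3G KO 1 (-0.32), with no filter on low values (limma adjusted p = 0.0888) and with the length and GC correction (-0.34, limma adjusted p = 0.0936). With that correction Esrrb (0.37, limma adjusted p = 0.00841) and Tfcp2l1 (0.30, limma adjusted p = 0.0396) were higher, and with TPM as deposited 2 of the 8 were lower. By qPCR the study reports both Esrrb and Klf4 as higher in C3G null cells, and by western blot both proteins, so the RNA of Klf4 differs in direction here. In its own RNA sequencing the study found no significant difference for many pluripotency genes. Markers of other cell types moved between the groups. Counts of calls among all markers named here stand beside 14.1% higher and 16.6% lower of all 12518 tested genes after scaling. As deposited these shares were 1.45% and 56.8%. With no filter 1430 of 33039 genes were higher and 1895 lower. The summed scaled TPM of 7 trophoblast markers were 7.33, 6.8 and 6.71 in WT and 2.68 and 2.97 in C3G KO, with Krt7 the most abundant and 2 of 3 tested genes lower. These were Krt7 (log2 fold change -1.46, limma adjusted p = 0.000574) and Cdx2 (log2 fold change -0.73, limma adjusted p = 0.00227). Those of 6 mesoderm markers were 5.21, 4.17 and 4.69 in WT and 1.29 and 1.92 in C3G KO, with T, a gene of early mesoderm, the most abundant, and those of 8 fibroblast or feeder markers were 4.72, 4.79 and 4.08 in WT and 2.85 and 3.2 in C3G KO, with Thy1 the most abundant. As deposited, too, the sums of these 3 lists were lower in both C3G KO samples than in any WT sample. Of the fibroblast or feeder markers, 2 of 2 tested genes were lower, and 1 of 2 without WT 1, WT 2, C3G KO 1 or C3G KO 2. With no filter 4 of the 8 were lower and 1 was higher, which was Pdgfra, with 0.352, 0.32 and 0.453 scaled TPM for WT 1 to 3 against 1.21 and 1.65 for C3G KO 1 and 2. After scaling, extraembryonic endoderm markers went the other way, with sums of 4.79, 4.67 and 4.64 in WT and 9.89 and 12.6 in C3G KO over 10 genes, led by Dab2. There 2 of 2 tested genes were higher, Cubn and Dab2. Dab2 did not pass without WT 1 (limma adjusted p = 0.0654), without WT 2 (0.0694) or with no filter (0.0727). Its fold change of 0.69 was 0.40 without C3G KO 2. As deposited these sums overlapped, at 6.4, 5.7 and 5.12 in WT and 6.12 and 11.4 in C3G KO, and Dab2 did not pass (0.22, limma adjusted p = 0.325). The 5 neuroectoderm markers summed to 19.8, 19.3 and 20.8 in WT and 27.6 and 25.9 in C3G KO, led by Tubb3, with 1 gene higher (Tubb3) and 1 lower (Nes). As deposited the sums were 26.4, 23.6 and 23 in WT and 17.1 and 23.4 in C3G KO, with C3G KO 1 the lowest and C3G KO 2 among the WT samples, and Tubb3 did not pass (0.28, limma adjusted p = 0.315). Of the extraembryonic endoderm markers under the filter, Gata6 (0.52, limma adjusted p = 0.0157), Sox17 (0.53, limma adjusted p = 0.0235) and Amn (0.62, limma adjusted p = 0.0391) passed as higher with no filter. Of the trophoblast and mesoderm markers under it, Hand1 (-0.51, limma adjusted p = 0.0233), Gata3 (-0.28, limma adjusted p = 0.026) and Kdr (-0.33, limma adjusted p = 0.0209) passed as lower. By qPCR the study reports T, Gata6 and Sox17, among others, as repressed in C3G null cells, so Gata6 and Sox17 differ in direction here. Afp, Ttr, Elf5, Tpbpa, Mesp1, Hand2, Neurog2 and Lum reached at most 0.1 TPM in any sample. Several imprinted genes are also transcribed in such cell types, and the part of these shifts in the changes below was not tested. In bulk samples, fewer cells that express a gene and less RNA of it per cell cannot be told apart.

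Of the 10 imprinted genes, 1 was higher (H19) and 6 were lower (Grb10, Igf2, Mest, Peg3, Cdkn1c and Dlk1) in C3G KO at a limma adjusted p under 0.05, and Meg3, Rian and Mirg did not pass. Among all 12518 tested genes, 14.1% were higher and 16.6% lower by the same rule (1760 and 2083 genes), so that calls of lower expression made up a larger share of the 10 genes than of all genes. The 10 genes were chosen with earlier results of these data known, and Igf2 and Dlk1 met the filter through WT alone. The larger share is therefore a description and was not tested. The number of calls over all genes moved with the samples used: there were 890 higher and 1323 lower genes without WT 2, 906 and 1348 without C3G KO 1, and 964 and 1437 without C3G KO 2. The median log2 fold change was -0.50 over the 10 genes and 0.0052 over all tested genes. With TPM as deposited the median of all genes was -0.55, and 1.45% of all genes were higher and 56.8% lower (181 and 7109 genes), against 0 higher (0 at an unadjusted p under 0.05 by limma) and 8 lower of the 10. Higher calls then made up 2.48% of the calls over all genes, against 45.8% after scaling, and 15.9% where samples were scaled to the same sum of protein-coding TPM, which left a median of -0.17. Set relative to the median of -0.55, fold changes from TPM as deposited were 0.75 for H19, -2.58 for Igf2, -3.09 for Grb10, -1.24 for Mest, -0.96 for Peg3 and -0.67 for Cdkn1c. The same difference was -0.40 for Meg3, -0.39 for Rian, 0.12 for Mirg and -0.10 for Dlk1. The 1 TPM added before taking logs shrinks the shift between samples for genes of low level. The value for Dlk1 therefore understates its fall, as its mean in WT was 3.04 times that in C3G KO as deposited and 2.02 times after scaling. The largest changes thus belonged to Grb10 and Igf2 on either scale.

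**Figure D1:**
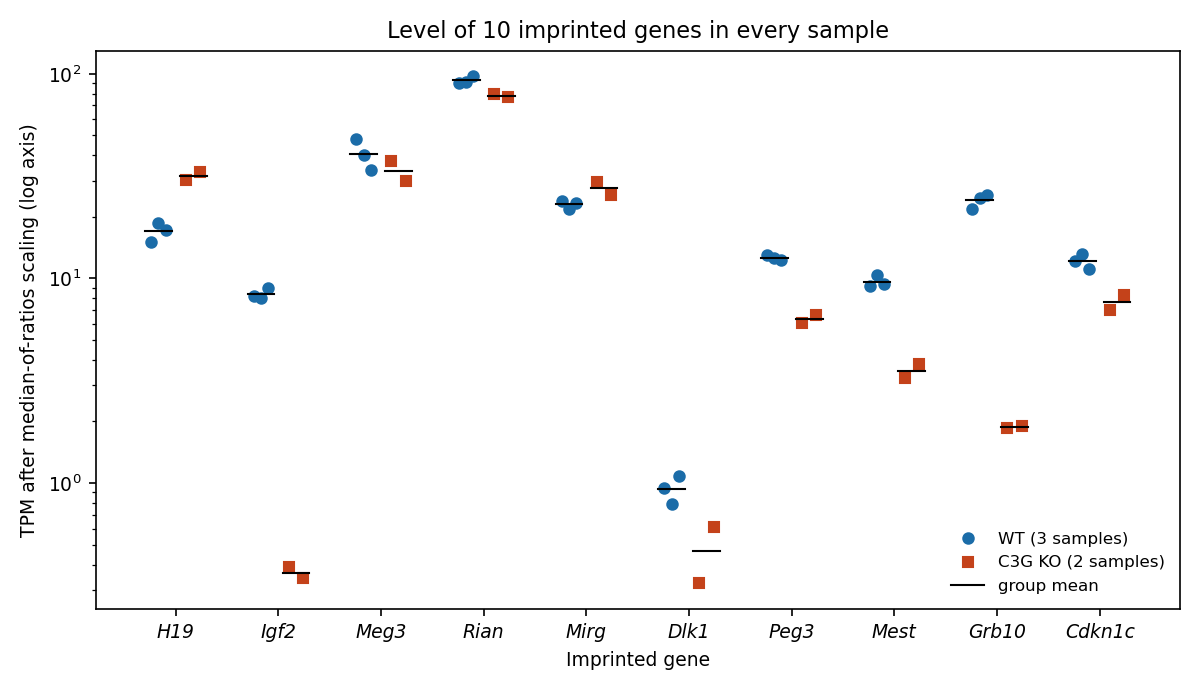
TPM after median-of-ratios scaling of the 10 imprinted genes in each of 3 WT samples (circles) and 2 C3G KO samples (squares), on a log axis, with the mean of each group as a bar. Grb10 and Igf2 show the widest gaps, with C3G KO values of 1.86 and 1.90 for Grb10 and 0.388 and 0.342 for Igf2, while the groups overlap for Meg3.

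H19 and Igf2 share a cluster on chromosome 7 and moved in opposite directions. Igf2 encodes a fetal growth factor and is usually transcribed from the paternal copy, and H19, usually transcribed from the maternal copy, is a long non-coding RNA. Both compete for the same enhancers, and an insulator bound by CTCF lies between them. Igf2 (ENSMUSG00000048583, chromosome 7 from 142650766 to 142666816) had 10.9, 9.74 and 9.93 TPM for WT 1 to 3 against 0.24 and 0.31 for C3G KO 1 and 2 as deposited. After scaling it had 8.17, 7.99 and 8.99 scaled TPM for WT 1 to 3 against 0.388 and 0.342 for C3G KO 1 and 2. Both C3G KO samples lay far below every WT sample, and the mean of WT was 23 times that of C3G KO, with log2 fold change -2.78, standard error 0.074, limma adjusted p = 2.42e-05. H19 (ENSMUSG00000000031, chromosome 7 from 142575529 to 142578143) had 20.1, 22.7 and 18.9 TPM for WT 1 to 3 against 18.8 and 30.0 for C3G KO 1 and 2 as deposited, where the groups overlapped. After scaling it had 15.1, 18.6 and 17.2 scaled TPM for WT 1 to 3 against 30.4 and 33.1 for C3G KO 1 and 2, and both C3G KO samples lay above all WT samples. The mean of C3G KO was 1.87 times that of WT (log2 fold change 0.87, standard error 0.101, limma adjusted p = 0.00219), and the call was lost with TPM as deposited (0.20, limma adjusted p = 0.483). In WT the deposited level of H19 was 20.6 ± 1.93 TPM (SD, n = 3) and that of Igf2 10.2 ± 0.628 TPM, while in C3G KO they were 24.4 ± 7.93 and 0.275 ± 0.0495 TPM (SD, n = 2). Igf2 was lower in several groups of transcripts with different annotated start sites. These transcripts overlap in the genome, so the division of reads among them is an estimate and the groups are not independent. Transcripts starting between 142656018 and 142657496, 53.1% of its TPM in WT, had scaled TPM of 4.23, 4.73 and 4.36 in WT and 0.226 and 0.254 in C3G KO. The single transcript starting at 142653030, 33.2% of the gene in WT, had 2.58, 2.21 and 3.62 in WT and 0.0646 and 0.0221 in C3G KO. A transcript starting at 142666816 went the other way, at 0 in WT and 0.0323 and 0.0552 in C3G KO. The insulin gene Ins2, next to Igf2, was listed at 0 in all samples, as were the microRNA genes Mir675 in H19 and Mir483 in Igf2. For the microRNA genes this does not show absence, as the measurement of such short RNAs in these libraries was not tested.

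Grb10 had the largest fall of the 10 genes on the scale of log2(TPM + 1), while the ratio of the means was larger for Igf2. Grb10 encodes an adaptor protein that dampens signalling from insulin and insulin-like growth factor receptors, and outside neurons it is usually transcribed from the maternal copy. Grb10 (ENSMUSG00000020176, chromosome 11 from 11930508 to 12038683) had 29.2, 30.2 and 28.2 TPM for WT 1 to 3 against 1.15 and 1.72 for C3G KO 1 and 2 as deposited. After scaling it had 21.9, 24.8 and 25.5 scaled TPM for WT 1 to 3 against 1.86 and 1.9 for C3G KO 1 and 2. Samples within a group were close, the groups lay far apart, and the mean of WT was 12.8 times that of C3G KO (log2 fold change -3.12, standard error 0.0823, limma adjusted p = 2.42e-05). Transcripts starting between 12037401 and 12038683 held 93.5% of its TPM in WT and 85% in C3G KO. Their scaled TPM were 20.5, 23.3 and 23.6 in WT and 1.62 and 1.59 in C3G KO. Of the less used start sites, the 3 with TPM above 0 in WT lay lower in C3G KO as well. Another, at 11970642, was at 0 in WT and had 0 and 0.166 scaled TPM in C3G KO. Transcripts of these start sites lie within the span of the main one, so their values are not independent of its fall. Those starting between 12026324 and 12027971 had 0.315, 0.582 and 0.136 in WT and 0.0808 and 0 in C3G KO. The transcript starting at 11956024 had 0.547, 0.451 and 0.553 in WT and 0.0323 and 0.0221 in C3G KO. The one starting at 11938616 had 0.479, 0.418 and 1.22 in WT and 0.129 and 0.121 in C3G KO. The neighbouring gene Ddc encodes a decarboxylase that makes dopamine and serotonin, and is imprinted in the heart. It had 1.75, 1.73 and 1.29 scaled TPM for WT 1 to 3 against 3.3 and 2.67 for C3G KO 1 and 2, and was higher in C3G KO (log2 fold change 0.62, standard error 0.116, limma adjusted p = 0.0112), though not with TPM as deposited (0.14, limma adjusted p = 0.529) and not without C3G KO 1 (limma adjusted p = 0.0677). Within 1 Mb on either side of Grb10, 3 tested genes outside the list of imprinted genes had a median log2 fold change of -0.17, with 1 higher and 0 lower by limma (0 lower at an unadjusted p under 0.05).

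Mest, Peg3 and Peg10, which are usually transcribed from the paternal copy, were all lower in C3G KO. Mest encodes a protein with a hydrolase fold and is used as a marker of mesoderm. Mest (ENSMUSG00000051855, chromosome 6 from 30723547 to 30748465) had 12.3, 12.6 and 10.3 TPM for WT 1 to 3 against 2.01 and 3.47 for C3G KO 1 and 2 as deposited. Its scaled level was 9.64 ± 0.622 in WT (SD, n = 3) and 3.54 ± 0.411 in C3G KO (SD, n = 2), with no overlap (log2 fold change -1.23, standard error 0.086, limma adjusted p = 0.00046). Transcripts starting between 30738050 and 30738055 held 87.1% of the gene in WT, with scaled TPM of 8.83, 9.7 and 6.41 in WT and 3.01 and 3.56 in C3G KO. Transcripts starting between 30731968 and 30733506 were assigned 2.46 scaled TPM in WT 3 and were at or near 0 in the other samples. Copg2, a coat protein gene that overlaps the end of Mest on the other strand, had 9.86, 10.6 and 11.3 scaled TPM for WT 1 to 3 against 13.7 and 11.2 for C3G KO 1 and 2 and did not pass the threshold (log2 fold change 0.21, standard error 0.102, limma adjusted p = 0.16).

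Peg3 encodes a zinc finger protein that binds DNA. Peg3 (ENSMUSG00000002265, chromosome 7 from 6703892 to 6730431) had 17.4, 15.4 and 13.6 TPM for WT 1 to 3 against 3.74 and 5.98 for C3G KO 1 and 2 as deposited. Its scaled level was 12.7 ± 0.324 in WT (SD, n = 3) and 6.32 ± 0.393 in C3G KO (SD, n = 2), and every C3G KO value lay below every WT value (log2 fold change -0.90, standard error 0.0658, limma adjusted p = 0.000495). Of the 4 listed genes of its cluster, Peg3 alone passed the filter. Zfp264, under the filter, had 0.217, 0.164 and 0.199 scaled TPM for WT 1 to 3 against 0.97 and 1.2 for C3G KO 1 and 2, without overlap on either scale, and was higher with no filter (0.80, limma adjusted p = 0.00722). Zim1, at 0.479, 0.361 and 0.408 scaled TPM for WT 1 to 3 against 0.145 and 0.121 for C3G KO 1 and 2, was lower there (-0.32, limma adjusted p = 0.0294). Peg10, derived from a retrotransposon and needed for the placenta, was more abundant, with 101, 93.5 and 85.9 TPM for WT 1 to 3 against 14.7 and 24.7 for C3G KO 1 and 2 as deposited. Its groups did not overlap on either scale (log2 fold change -1.55, standard error 0.0816, limma adjusted p = 0.000207). Sgce encodes a sarcoglycan and shares a promoter region with Peg10. It had 1.75, 1.95 and 1.89 scaled TPM for WT 1 to 3 against 0.954 and 1 for C3G KO 1 and 2 and was also lower (log2 fold change -0.53, standard error 0.0734, limma adjusted p = 0.00395). In all, 4 of 5 tested genes of the Peg10 and Sgce cluster were lower and none was higher by limma (0 at an unadjusted p under 0.05), beside 14.1% higher and 16.6% lower of all genes. Some of these, such as Sgce, met the filter through WT alone. With no filter 3 of 9 genes of the cluster were lower and 0 higher, beside 1895 lower and 1430 higher of 33039 genes.

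Cdkn1c, also known as p57, encodes an inhibitor of cyclin-dependent kinases that limits growth, and is usually transcribed from the maternal copy. Cdkn1c (ENSMUSG00000037664, chromosome 7 from 143458339 to 143461050) had 16.1, 16 and 12.2 TPM for WT 1 to 3 against 4.32 and 7.54 for C3G KO 1 and 2 as deposited. Its scaled level was 12.1 ± 1.03 in WT (SD, n = 3) and 7.65 ± 0.948 in C3G KO (SD, n = 2), with no overlap (log2 fold change -0.60, standard error 0.101, limma adjusted p = 0.00776). In the same cluster, the paternal long non-coding RNA Kcnq1ot1, which silences the paternal copies of its neighbours, had 2.07, 1.5 and 1.35 scaled TPM for WT 1 to 3 against 1.41 and 1.14 for C3G KO 1 and 2. Its groups overlapped and it did not pass the threshold (log2 fold change -0.21, standard error 0.133, limma adjusted p = 0.275), though it did with TPM as deposited (-0.61, limma adjusted p = 0.00505). Of 8 tested genes in the cluster, 1 was higher and 3 were lower, beside 14.1% higher and 16.6% lower of all genes. As deposited 0 were higher (0 at an unadjusted p under 0.05 by limma) and 7 lower, beside 56.8% lower. The largest fall was that of Osbpl5, an oxysterol-binding protein gene of low level (1.43, 0.984 and 1.23 scaled TPM for WT 1 to 3 against 0.356 and 0.254 for C3G KO 1 and 2, log2 fold change -0.76, standard error 0.111, limma adjusted p = 0.00485). Osbpl5 met the filter through WT alone. With no filter 1 of 11 genes of the cluster was higher and 3 were lower, beside 1430 higher and 1895 lower of 33039 genes. The higher gene was Phlda2, which restrains growth of the placenta, with 17.7, 19 and 20.5 scaled TPM for WT 1 to 3 against 24.4 and 27.1 for C3G KO 1 and 2. Its call (log2 fold change 0.41, standard error 0.0873, limma adjusted p = 0.0165) was lost with TPM as deposited, where its fold change was -0.25, scaled to protein-coding TPM (0.20), with the length and GC correction (0.22), and without WT 2 (limma adjusted p = 0.0624) or C3G KO 2 (0.0848). Maternally expressed genes of this cluster thus lay on both sides of 0 after scaling.

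The Dlk1 to Dio3 cluster on chromosome 12 held the most abundant of the 10 genes, Rian, and the 3 that did not pass after scaling. Meg3, Rian and Mirg are long non-coding RNAs usually transcribed from the maternal copy in the same direction, and ES cell clones are known to differ in their silencing. Meg3 (ENSMUSG00000021268, chromosome 12 from 109541001 to 109571726) had 64.4, 48.8 and 37.5 TPM for WT 1 to 3 against 23.1 and 27 for C3G KO 1 and 2 as deposited and 48.2, 40.0 and 33.9 scaled TPM for WT 1 to 3 against 37.4 and 29.8 for C3G KO 1 and 2 after scaling. The scaled groups overlapped, and Meg3 did not pass the threshold (log2 fold change -0.27, standard error 0.166, limma adjusted p = 0.269), though it did with TPM as deposited (-0.95, limma adjusted p = 0.00253). It also passed with the replicate number as a block (-0.39, limma adjusted p = 0.0355). With the block and the length and GC correction it did not (-0.26, limma adjusted p = 0.0801). The fold change of Meg3 was -0.14 without WT 1, -0.42 without C3G KO 1 and -0.11 without C3G KO 2. Rian (ENSMUSG00000097451, chromosome 12 from 109603940 to 109661716), a host of snoRNAs, had 121, 111 and 108 TPM for WT 1 to 3 against 49.3 and 69.5 for C3G KO 1 and 2 as deposited. After scaling it had 90.5, 91.2 and 97.4 scaled TPM for WT 1 to 3 against 79.7 and 76.7 for C3G KO 1 and 2. The scaled groups lay side by side without overlap, and Rian fell short of the threshold (log2 fold change -0.25, standard error 0.0768, limma adjusted p = 0.0549). It passed with TPM as deposited (-0.94, limma adjusted p = 0.00339) and in several other settings. Mirg (ENSMUSG00000097391, chromosome 12 from 109729764 to 109749460), a host of microRNAs, had 31.9, 26.7 and 25.7 TPM for WT 1 to 3 against 18.3 and 23.1 for C3G KO 1 and 2 as deposited and 23.9, 21.9 and 23.3 scaled TPM for WT 1 to 3 against 29.6 and 25.4 for C3G KO 1 and 2 after scaling. Its C3G KO samples lay above WT after scaling and below WT as deposited, and neither fit passed (log2 fold change 0.24, standard error 0.0873, limma adjusted p = 0.0802 after scaling, -0.43, limma adjusted p = 0.142 as deposited). Without C3G KO 1 its fold change was 0.14. All 3 RNAs were measured well above 0 in every sample.

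Dlk1, a paternally expressed membrane protein related to Notch ligands, had the lowest level of the 10 genes in WT. Dlk1 (ENSMUSG00000040856, chromosome 12 from 109452823 to 109463336) had 1.27, 0.96 and 1.19 TPM for WT 1 to 3 against 0.2 and 0.55 for C3G KO 1 and 2 as deposited and 0.951, 0.787 and 1.08 scaled TPM for WT 1 to 3 against 0.323 and 0.607 for C3G KO 1 and 2 after scaling. The C3G KO samples were below WT, the mean of WT was 2.02 times that of C3G KO, and the call lay close to the threshold (log2 fold change -0.41, standard error 0.12, limma adjusted p = 0.047). Dlk1 met the filter through WT samples only, and its call was lost with no filter (limma adjusted p = 0.117). The call was also lost without WT 1 (limma adjusted p = 0.103), WT 2 (0.0708) or WT 3 (0.0972), and in several other settings. Without C3G KO 1 the fold change was -0.27. Of 5 tested genes in the cluster, none was higher by limma (1 at an unadjusted p under 0.05) and 1 was lower, which was Dlk1, beside 14.1% higher and 16.6% lower of all genes. As deposited 4 were lower, beside 56.8% of all genes. Dio3, under the filter, was lower with no filter (-0.45, limma adjusted p = 0.031). Of 67 microRNA genes annotated between the start of Dlk1 and the end of Dio3, 2 had a TPM above 0 in any sample. These were Gm27379 with 15.6 TPM and Mir433 with 7.79 TPM, both in WT 1 only. All 23 snoRNA genes of that region were listed at 0. Whether these libraries could measure such short RNAs was not tested, so a value of 0 does not show that they were absent.

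In WT the order of deposited levels was Rian, Meg3, Grb10, Mirg, H19, Peg3, Cdkn1c, Mest, Igf2 and Dlk1, from 113 ± 6.87 TPM (SD, n = 3) to 1.14 ± 0.161 TPM. Grb10 and Mirg overlapped over the samples, as did Peg3 and Cdkn1c, Cdkn1c and Mest, and Mest and Igf2. In C3G KO the order was Rian, Meg3, H19, Mirg, Cdkn1c, Peg3, Mest, Grb10, Dlk1 and Igf2, from 59.4 ± 14.3 TPM (SD, n = 2) to 0.275 ± 0.0495 TPM. There Meg3 and H19 overlapped, as did H19 and Mirg, Cdkn1c and Peg3, and Dlk1 and Igf2. Grb10 thus moved from place 3 to place 8, and H19 from place 5 to place 3.

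A wider list of 72 imprinted genes, which holds the 10, was described in the same way. Of these, 50 passed the filter, 10 were higher and 18 lower in C3G KO after scaling, beside 14.1% higher and 16.6% lower of all tested genes, and their median log2 fold change was -0.19. The 22 genes under the filter reached at most 1.09 TPM, and Ins2, Slc22a2 and Kcnk9 were listed at 0 throughout. Leaving out the 10 genes, 9 of 40 tested genes were higher and 12 lower, with a median of -0.11. That median lay above 0 with the length and GC correction (0.014, with 8 higher and 8 lower) and with a filter of 5 TPM (0.0135). With TPM as deposited none of the 50 was higher by limma (0 at an unadjusted p under 0.05) and 34 were lower, beside 56.8% lower of all genes, with a median of -0.65 beside -0.55 for all genes. After scaling, calls went in both directions for either allele. Of 22 tested genes usually transcribed from the maternal copy, 3 were higher and 8 lower, and of 27 from the paternal copy, 7 were higher and 9 lower, with medians of -0.24 and -0.11. The paternal median lay above 0 with the length and GC correction (0.0625) and with a filter of 5 TPM (0.0439). The share of maternal genes that were higher was thus near that of all genes, and without C3G KO 2 there were 5 lower maternal genes. As deposited, 17 maternal and 16 paternal genes were lower and none was higher by limma (0 and 0 at an unadjusted p under 0.05).

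**Figure D2:**
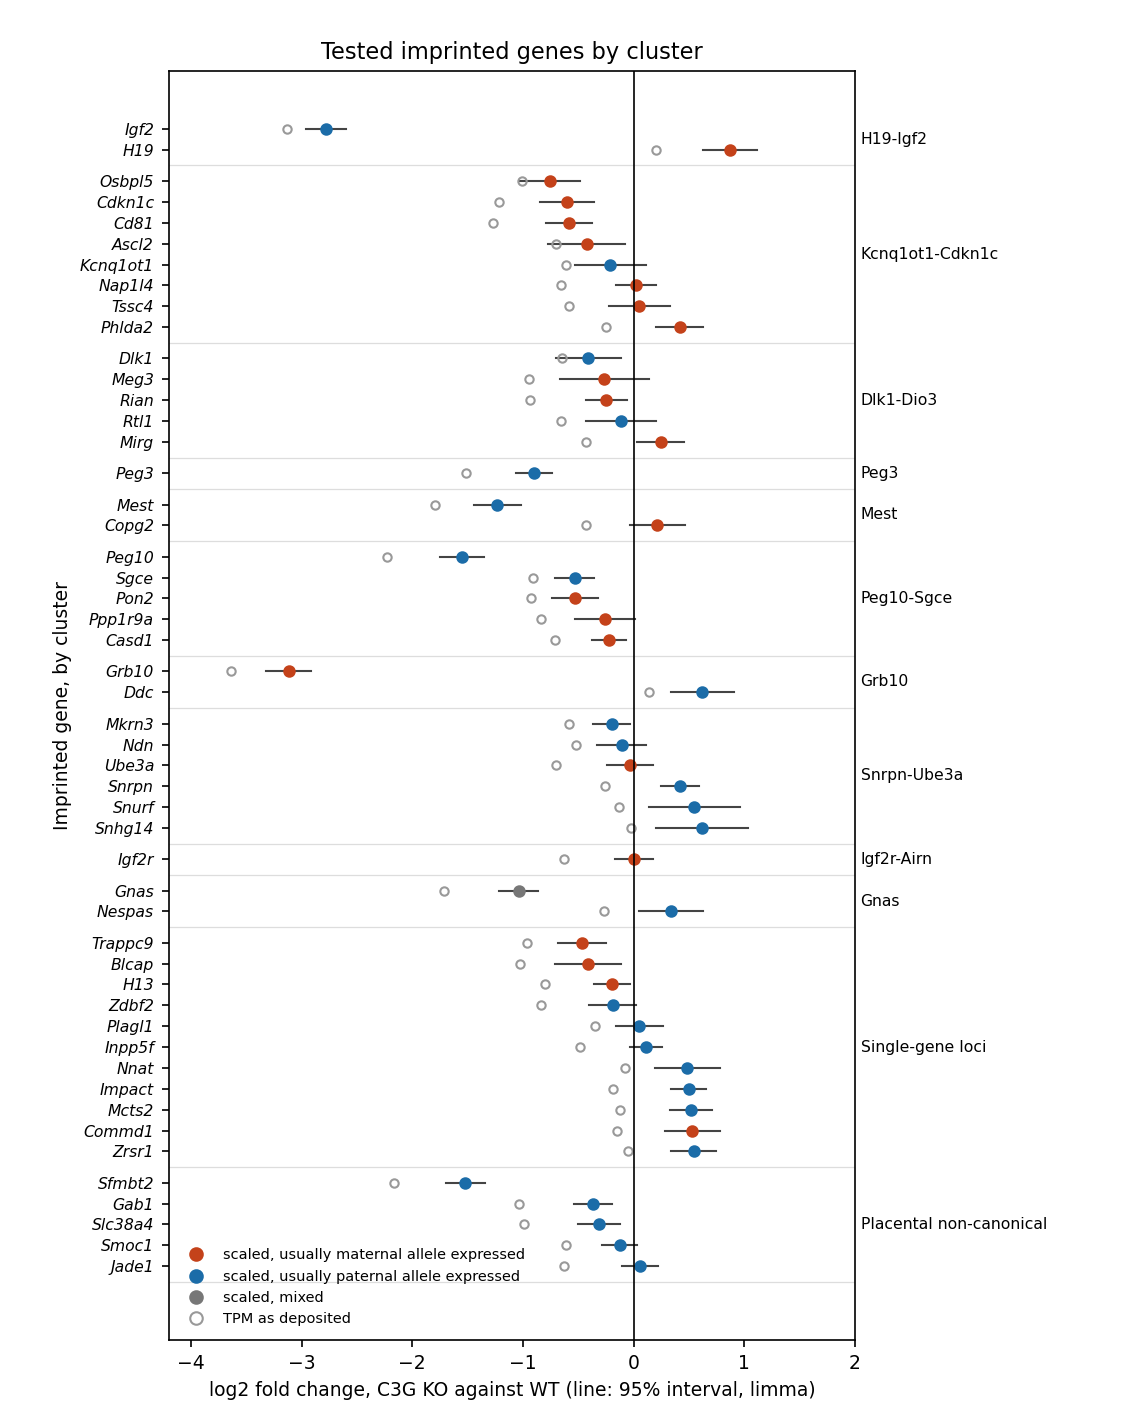
Log2 fold change of C3G KO against WT for 50 tested imprinted genes, grouped by cluster, from scaled TPM (filled circles, coloured by the allele usually expressed, with 95% intervals from limma) and from TPM as deposited (open circles). Genes of the H19 and Igf2 cluster lie at 0.87 and -2.78, Grb10 at -3.12, and genes of the Dlk1 to Dio3 cluster between -0.41 and 0.24 after scaling.

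Clusters without any of the 10 genes differed in direction after scaling. The Gnas locus encodes the stimulatory G protein alpha subunit, with several promoters that differ in imprinting. Gnas had 56.7, 53.5 and 51.7 TPM for WT 1 to 3 against 13.2 and 18.8 for C3G KO 1 and 2 as deposited and was lower after scaling (log2 fold change -1.04, standard error 0.0717, limma adjusted p = 0.000444). Transcripts from the promoter of the alpha subunit, starting between 174330006 and 174330287, held 67.2% of the gene in WT. Their scaled TPM were 30.9, 29.9 and 28.1 in WT and 12.2 and 13.7 in C3G KO, with no overlap. Those from the Nesp promoter, starting between 174284320 and 174285358, had 6.67, 7.89 and 6.84 in WT and 4.62 and 4.29 in C3G KO, also without overlap. At the transcript starting at 174341704, 7.59% of the gene in WT, the groups overlapped, with 2.24, 3.54 and 4.51 in WT and 2.7 and 1.21 in C3G KO. Nespas, the paternal RNA antisense to Nesp, had 7.25, 5.72 and 5.42 scaled TPM for WT 1 to 3 against 8.26 and 7.66 for C3G KO 1 and 2 and did not pass (log2 fold change 0.34, standard error 0.118, limma adjusted p = 0.0761), except without WT 1 (0.45, limma adjusted p = 0.0169).

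In the Snrpn to Ube3a cluster, 2 of 6 tested genes were higher and none was lower by limma after scaling (1 at an unadjusted p under 0.05), beside 14.1% higher and 16.6% lower of all genes. Snhg14, the paternal RNA that hosts snoRNAs and runs antisense to Ube3a, had 9.53, 7.94 and 8.95 scaled TPM for WT 1 to 3 against 17.3 and 11.4 for C3G KO 1 and 2 (log2 fold change 0.62, standard error 0.17, limma adjusted p = 0.0382). Its call was lost without any of the 3 WT samples or C3G KO 1, at limma adjusted p-values of 0.069, 0.102, 0.069 and 0.105. Its fold change was 0.34 without C3G KO 1 and 0.90 without C3G KO 2. Snrpn, a small nuclear ribonucleoprotein gene, had 32.7, 34.2 and 32.3 scaled TPM for WT 1 to 3 against 43 and 46 for C3G KO 1 and 2 (log2 fold change 0.42, standard error 0.0699, limma adjusted p = 0.00757). With TPM as deposited both fold changes were below 0, at -0.02 and -0.26, and neither passed there or when scaled to protein-coding TPM (0.41 and 0.20). As deposited 3 of the 6 genes were lower, near the share of 56.8% over all genes. All 210 snoRNA genes between Ube3a and Snurf were listed at 0, which, as for the other short RNAs, does not show that they were absent.

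In the Igf2r and Airn cluster, the receptor gene Igf2r, whose product takes up IGF2 for degradation, had 10.6, 10.2 and 10.6 scaled TPM for WT 1 to 3 against 9.89 and 11.1 for C3G KO 1 and 2, with overlapping groups (log2 fold change 0.003, standard error 0.0707, limma adjusted p = 0.978). It passed as lower with TPM as deposited (-0.63, limma adjusted p = 0.0275) and as higher with the length and GC correction (0.24, limma adjusted p = 0.034). The paternal RNA Airn, antisense to Igf2r, had 0.88, 0.36 and 0.29 TPM for WT 1 to 3 against 0.06 and 0.02 for C3G KO 1 and 2 as deposited, was under the filter and did not pass with no filter (-0.40, limma adjusted p = 0.135). Peg13, a paternal non-coding RNA, had 0.77, 0.69 and 0.57 TPM for WT 1 to 3 against 0.37 and 0.5 for C3G KO 1 and 2 as deposited and was likewise under the filter. Its scaled groups overlapped, and it did not pass with no filter (0.02, limma adjusted p = 0.877). Among loci with a single imprinted gene or pair, 5 of 11 tested genes were higher and 2 lower after scaling, beside 14.1% higher and 16.6% lower of all genes. These counts were 3 and 1 without C3G KO 1, 4 and 0 without C3G KO 2, 5 and 1 without WT 1, 4 and 1 without WT 2, and 0 and 4 as deposited, beside 56.8% lower of all genes. Among the higher genes were Zrsr1, a splicing factor gene within an intron of Commd1, with 4.79, 4.8 and 5.28 scaled TPM for WT 1 to 3 against 7.08 and 8.29 for C3G KO 1 and 2 (log2 fold change 0.54, standard error 0.0848, limma adjusted p = 0.00614), and Commd1 itself (log2 fold change 0.53, standard error 0.102, limma adjusted p = 0.0124). Their fold changes with TPM as deposited were -0.05 and -0.15, and the Commd1 call was lost without C3G KO 1 (limma adjusted p = 0.0721). Genes imprinted in the placenta without inherited DNA methylation were lower in 3 of 5 cases and higher in none by limma (0 at an unadjusted p under 0.05), beside 16.6% lower of all genes. Of these 5, 1 was lower without WT 2, without C3G KO 1 or with the length and GC correction, and all 5 were lower as deposited, beside 56.8% of all genes. The largest change was that of Sfmbt2, a polycomb group gene, with 39.6, 33.9 and 30.6 TPM for WT 1 to 3 against 5.97 and 8.03 for C3G KO 1 and 2 as deposited and no overlap on either scale (log2 fold change -1.52, standard error 0.0707, limma adjusted p = 0.000144).

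Genes around the imprinted loci gave a local comparison after scaling, chosen after the values were seen. Over all tested genes 14.1% were higher and 16.6% lower. Within 1 Mb of Igf2, 9 tested genes outside the list had a median log2 fold change of -0.04, with 1 higher and 0 lower by limma (0 lower at an unadjusted p under 0.05). Around Mest the median of 13 such genes was 0.08, with 1 higher and 2 lower, and around Peg3 that of 13 was -0.06, with 4 higher and 0 lower (2 lower at an unadjusted p under 0.05). Around Gnas the median of 19 genes was 0.04, with 1 higher and 1 lower. Around Cdkn1c, where the window overlaps that of Igf2, 8 genes had a median of 0.0089, with 2 higher and 0 lower by limma (0 lower at an unadjusted p under 0.05). Around Dlk1 the median of 9 genes was -0.04, with 1 higher and 0 lower by limma (0 lower at an unadjusted p under 0.05). Around Peg10 only 2 neighbours were tested, with a median of -0.33 and 1 lower. Around Sfmbt2 the neighbours had a median of -0.39 over 21 genes, with 1 higher and 6 lower. As deposited the medians were -0.98 around Sfmbt2, -0.77 around Peg10 and between -0.57 and -0.37 around the other loci, beside -0.55 for all genes.

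Imprints are kept through cell division by factors that bind and protect methylated control regions. Of 13 genes for such factors and for enzymes that add or remove methylation, all were tested, and 3 were higher and 0 lower by limma after scaling (1 lower at an unadjusted p under 0.05), beside 14.1% higher and 16.6% lower of all genes. As deposited 0 were higher (0 at an unadjusted p under 0.05 by limma) and 8 lower, beside 56.8% lower of all genes. Scaled to protein-coding TPM 2 were higher and 2 lower, and the same counts were found with quantile normalization. Dppa3, which protects methylation in the early embryo, had 2.59, 2.68 and 2.57 scaled TPM for WT 1 to 3 against 5.46 and 5.58 for C3G KO 1 and 2, above WT in both C3G KO samples (log2 fold change 0.85, standard error 0.0603, limma adjusted p = 0.00046). The de novo methyltransferase genes Dnmt3a (log2 fold change 0.63, standard error 0.0883, limma adjusted p = 0.00425) and Dnmt3b (log2 fold change 0.44, standard error 0.0902, limma adjusted p = 0.0151) were higher too. The Dnmt3b call was lost when scaled to protein-coding TPM (limma adjusted p = 0.158), with quantile normalization (0.0595) and without WT 2 (limma adjusted p = 0.0635) or C3G KO 2 (0.0534). With TPM as deposited none of the 3 passed, with fold changes of 0.30, 0.0016 and -0.24. Zfp57, the zinc finger protein that binds methylated control regions, had 71.3, 67.4 and 66.3 scaled TPM for WT 1 to 3 against 74.8 and 68.5 for C3G KO 1 and 2, and its partner Trim28 had 375, 376 and 410 scaled TPM for WT 1 to 3 against 343 and 370 for C3G KO 1 and 2. Neither passed the threshold after scaling (log2 fold change 0.07, limma adjusted p = 0.564 for Zfp57 and log2 fold change -0.12, limma adjusted p = 0.433 for Trim28). Both passed as lower with TPM as deposited (-0.62, limma adjusted p = 0.0439 for Zfp57 and -0.82, limma adjusted p = 0.00956 for Trim28). Trim28 also passed as lower when scaled to protein-coding TPM (-0.34, limma adjusted p = 0.0394) and with quantile normalization (-0.64, limma adjusted p = 0.00842). The other 8 genes had log2 fold changes from -0.18 to 0.17 after scaling, and of these Uhrf1 passed as higher with the length and GC correction (0.34, limma adjusted p = 0.0363). As deposited 6 of these 8 passed as lower, Zfp445, Setdb1, Dnmt1, Ctcf, Tet1 and Tet2, with fold changes from -0.83 to -0.66. Setdb1 also passed as lower when scaled to protein-coding TPM (-0.39, limma adjusted p = 0.00942), with quantile normalization (-0.22, limma adjusted p = 0.0364) and with a filter of 5 TPM (-0.22, limma adjusted p = 0.0284).

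ZFP57 binds the letters TGCCGC where they are methylated, so promoters of the genes above were searched for them on both strands (TGCCGC or GCGGCA). The windows were those of RefSeq on GRCm38.p6, from 250 bases before to 50 bases after a start, and 8 of the 10 genes had an entry, with 15 windows. The letters were found in 5 of these 15, which overlap in part, and in 11.6% of all 32851 windows. Shown are the windows nearest to the main start of Grb10 and Igf2, which had the largest falls, of Mest, which also fell, and of Meg3, which did not pass. The windows are printed 5′ to 3′ on the strand of the gene, and capitals mark the letters searched for.
Grb10 promoter (chr11:12037371-12037670, minus strand): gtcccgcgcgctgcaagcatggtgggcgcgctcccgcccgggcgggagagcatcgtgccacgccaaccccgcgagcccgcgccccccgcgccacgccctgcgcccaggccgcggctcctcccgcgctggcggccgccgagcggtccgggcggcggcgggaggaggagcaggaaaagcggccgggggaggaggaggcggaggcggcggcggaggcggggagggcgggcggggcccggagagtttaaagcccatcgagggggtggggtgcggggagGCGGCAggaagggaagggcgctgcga
Igf2 promoter (chr7:142657447-142657746, minus strand): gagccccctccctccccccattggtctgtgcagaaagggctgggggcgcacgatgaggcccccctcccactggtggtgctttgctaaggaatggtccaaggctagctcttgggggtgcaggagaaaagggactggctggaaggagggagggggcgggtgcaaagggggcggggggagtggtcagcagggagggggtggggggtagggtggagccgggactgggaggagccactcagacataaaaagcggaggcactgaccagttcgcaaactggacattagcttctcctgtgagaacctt
Mest promoter (chr6:30737800-30738099, plus strand): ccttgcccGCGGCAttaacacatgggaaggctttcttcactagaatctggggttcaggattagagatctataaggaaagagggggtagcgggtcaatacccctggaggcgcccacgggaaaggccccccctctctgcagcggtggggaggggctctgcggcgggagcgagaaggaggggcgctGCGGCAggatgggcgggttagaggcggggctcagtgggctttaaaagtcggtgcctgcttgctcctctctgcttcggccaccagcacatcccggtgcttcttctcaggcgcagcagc
Meg3 promoter (chr12:109540746-109541045, plus strand): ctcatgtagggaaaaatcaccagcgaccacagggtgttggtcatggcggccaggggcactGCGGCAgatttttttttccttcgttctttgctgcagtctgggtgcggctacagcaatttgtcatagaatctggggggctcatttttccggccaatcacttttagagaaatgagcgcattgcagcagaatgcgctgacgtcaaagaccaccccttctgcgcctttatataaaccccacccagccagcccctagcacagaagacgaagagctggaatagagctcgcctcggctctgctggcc
The Grb10 window held 1 copy and 45 CpG, the Mest window 2 copies and 17 CpG, and the Meg3 window 1 copy and 13 CpG. The Igf2 window held 7 CpG and no copy, which says only that these letters are not in that window. Another Igf2 window, from 142661222 to 142661521, held 1 copy and 14 CpG. The median over all windows was 7 CpG. A match describes the sequence and is not evidence of binding, and DNA methylation was not analysed here.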

How the data were processed

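RNA of mouse ES cells was sequenced on an Illumina instrument as paired-end reads, in 3 WT and 2 C3G KO samples. The authors deposited TPM per Ensembl transcript, and the submitters' processing notes name bcl2fastq 2.20, FastQC 0.11.7, STAR 2.5.1b, RSEM 1.2.31 and the build GRCm38. Of 142647 transcripts, 141524 were matched to GENCODE and summed by gene symbol. TPM keep no read numbers, so the depth per sample is unknown and no counting error can be given. DESeq2, which the authors used, needs counts and was replaced by limma 3.58.1 in R 4.3.3 with a trend of variance on mean, run on log2(TPM + 1). Tests were two-sided, with Benjamini-Hochberg adjustment across the 12518 tested genes and a threshold of 0.05. Prior degrees of freedom were 3.11 after scaling and infinite for TPM as deposited. Alternatives were other scalings, pseudocounts, filters, no trend, each sample left out, a replicate block and a length and GC correction (loess span 0.5). Start sites are those annotated for the transcripts, and those within 1500 bases of the next were grouped. TPM of transcripts that overlap are estimates, so the use of a start site was not measured directly. The members and lists were chosen with earlier results of these data known. Named genes are the 10, the gene past the threshold with the largest change in each cluster, the 5 largest rises and 5 largest falls past the threshold in the list, 5 long non-coding RNAs, and maintenance factors. Phlda2, Sgce, Copg2, Igf2r, Snrpn, Esrrb, Tfcp2l1, genes under the filter other than Airn and Peg13, the start sites, neighbours and promoters shown were chosen after seeing the values. Tables and figures used Python 3.11.15, pandas 2.3.3 and matplotlib 3.10.9.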

Additional observations from a re-analysis of the deposited data

How the results depend on the processing

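Grb10, Igf2, Mest, Peg3 and Cdkn1c kept their direction and their adjusted p under 0.05 in all 16 alternatives that were run for them, and H19 in all but TPM as deposited, where it was 0.20 (adjusted p = 0.483). With TPM as deposited, higher and lower calls over all genes were 181 and 7109, those among the 10 genes 0 higher, and those among 72 imprinted genes 0 higher and 34 lower. There Meg3 (-0.95) and Rian (-0.94) passed and Mirg turned to -0.43. Scaled to protein-coding TPM, all genes gave 707 higher and 3732 lower calls and imprinted genes 5 higher. With a filter of 5 TPM, fewer genes were tested, with 1122 higher and 1348 lower. Rian also passed when scaled to protein-coding TPM (-0.47), with quantile normalization (-0.49), with that filter (-0.29), without the trend (-0.25) and with the length and GC correction (-0.33). Dlk1 did not pass with quantile normalization (-0.14), a pseudocount of 0.1 (-0.92), no filter (-0.41) or the length and GC correction (-0.42). The cause of these changes was not tested.

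The samples share 2 replicate numbers in their titles, and the labels do not say that a number marks a shared culture or day. C3G KO 2 carries a different number in its deposited name, and only the numbers of the titles were used here. Deviations within numbers correlated at -0.18 and 0.18. With 2 C3G KO samples these deviations mirror each other, so this could not show whether the numbers pair the samples. With the replicate number as a block, calls were 1489 higher and 1816 lower over all genes, Meg3 was at -0.39 (adjusted p = 0.0355) and Dlk1 at -0.36 (adjusted p = 0.0946). With the block and the length and GC correction, all genes gave 1161 and 1309, imprinted genes 6 higher, Dlk1 -0.39, and Meg3 -0.26, which did not pass (adjusted p = 0.0801).

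With each sample left out, higher calls over all genes were 890 to 1559 and lower calls 1323 to 1844, and Dlk1 ranged from -0.55 to -0.27, Meg3 from -0.42 to -0.11 and Mirg from 0.14 to 0.35. Where 1 C3G KO sample was left, it was assumed to vary like the WT samples.

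Signs turned with TPM as deposited for Zrsr1 (-0.0535), Snhg14 (-0.0241), Commd1 (-0.15), Nespas (-0.27), Phlda2 (-0.25), Copg2 (-0.43), Snrpn (-0.26) and Dnmt3b (-0.24). Igf2r, near 0 after scaling, was at -0.63 as deposited (adjusted p = 0.0275), -0.20 scaled to protein-coding TPM, -0.00756 with quantile normalization, -0.0364 with a filter of 5 TPM, and between -0.0744 and 0.0805 with each sample left out, and passed as higher with the length and GC correction (0.24). Zfp57 was at -0.62, -0.15 and -0.12 under the first 3 of these settings and at -0.0194 with the block and the length and GC correction, where Setdb1 was at 0.00615, and Pou5f1 at -0.52, -0.0444 and -0.30 under the same 3. Esrrb was at -0.57, -0.10 and -0.0247 under them, and Tfcp2l1 at -0.52 and -0.0694 and Uhrf1 at -0.51 and -0.0512 under the first 2. The depth of these samples is unknown, and the 2 C3G KO samples limit the precision.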
